A study of Mus musculus with 10 samples.

Results

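The data described here are the H3K27Ac and H3K4me2 peaks around 3 genes of fasting metabolism in mouse liver, Pck1, G6pc and Tat. Members were all peaks of the 9 deposited lists that overlap a window around each gene on the mouse build mm9. The windows were chr2:172950000-173010000 for Pck1, chr11:101210000-101260000 for G6pc and chr8:112490000-112540000 for Tat. They held 283 of the 344928 peaks listed in all on the autosomes, X and Y, 92 at Pck1, 95 at G6pc and 96 at Tat. The genes were selected on peak positions already known from these data, among them a Pck1 peak seen in fixed but not in fresh frozen tissue. The differences between fresh frozen and fixed tissue are therefore given as descriptions, without tests.

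All samples were normal mouse liver taken as full sections. Fresh frozen liver gave 1 H3K27Ac library, which was briefly fixed in formaldehyde and sonicated. Formalin-fixed, paraffin-embedded (FFPE) liver gave 6 H3K27Ac libraries by FiTAc-seq, in which sections were heated overnight in SDS buffer and then sonicated. The conditions were 50 °C with 5 or 40 min of sonication, 65 °C with 5 or 40 min, and 80 °C with 40 min, with 2 libraries at 65 °C and 5 min and 1 elsewhere. FFPE liver treated with proteinase K (FiT-seq) gave 1 H3K27Ac and 1 H3K4me2 library, and 1 FFPE input DNA was not analysed here. All H3K27Ac libraries used the same antibody lot. Strain, sex, age and feeding state were not given in the labels, nor whether fresh frozen and FFPE tissue, or the 2 libraries at 65 °C and 5 min, came from the same animal. Feeding state, animal, fixation and peak calling therefore cannot be told apart in any difference between fresh frozen and FFPE liver. The label of liver was not checked against other marker genes, because gene positions on mm9 were not used here.

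H3K27Ac, an acetylated lysine on histone H3, marks active promoters and enhancers, whereas H3K4me2, a dimethylated lysine, occurs at a wider range of promoters and enhancers. Pck1 encodes the cytosolic phosphoenolpyruvate carboxykinase, which turns oxaloacetate into phosphoenolpyruvate at the start of gluconeogenesis. G6pc encodes the catalytic subunit of glucose-6-phosphatase, which releases free glucose at the end of that path. Tat encodes tyrosine aminotransferase, which starts the breakdown of tyrosine and so feeds carbon into glucose production. In the fasted liver, glucagon acting through cAMP and the factor CREB, glucocorticoids acting through their receptor, and forkhead factors of the FoxO class raise the transcription of such genes, and insulin lowers it.

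The promoters of the 3 genes are shown because they were searched for letters that such factors bind. They are the 250 bases before each RefSeq gene start, on the plus strand of build GRCm38.p6, and all 3 genes were matched by symbol. Coordinates on that build are not those of the peaks, and the promoters were not placed on mm9. Capitals mark the letters found among 8 motifs searched on both strands. These were TGACGTCA and its part TGACG (CREB), AGAACA (part of a glucocorticoid receptor site), GTAAACA and AAAACAA (forkhead), AGGTCA (part of a nuclear receptor site), TATAAA (the TATA box) and CCAAT.
Pck1, chr2:173152823-173153072: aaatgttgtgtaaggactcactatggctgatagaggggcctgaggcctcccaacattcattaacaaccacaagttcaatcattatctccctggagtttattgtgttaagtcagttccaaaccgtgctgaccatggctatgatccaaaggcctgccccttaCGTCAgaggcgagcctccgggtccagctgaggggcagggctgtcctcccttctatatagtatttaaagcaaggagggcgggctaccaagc
G6pc, chr11:101367466-101367715: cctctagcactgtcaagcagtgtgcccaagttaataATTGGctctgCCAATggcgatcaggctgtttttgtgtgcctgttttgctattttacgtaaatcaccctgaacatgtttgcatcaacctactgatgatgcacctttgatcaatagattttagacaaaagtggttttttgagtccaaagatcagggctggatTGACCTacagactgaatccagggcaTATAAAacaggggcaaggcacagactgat
Tat, chr8:109990186-109990435: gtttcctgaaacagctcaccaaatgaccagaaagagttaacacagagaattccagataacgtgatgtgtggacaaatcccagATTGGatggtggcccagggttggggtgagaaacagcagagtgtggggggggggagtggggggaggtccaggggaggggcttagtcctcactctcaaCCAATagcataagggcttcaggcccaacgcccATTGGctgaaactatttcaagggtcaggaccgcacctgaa
The Pck1 promoter held 1 match, the CREB letters TGACG on the minus strand, 90 to 86 bases before the start, which 17.8% of 32851 promoters of this length hold. The G6pc promoter held 4 matches. They were a TATA box 29 to 24 bases before the start (12.4% of promoters), AGGTCA on the minus strand 54 to 49 bases before it (14.0%), and CCAAT once on either strand (33.8%). The Tat promoter held CCAAT 3 times. The other motifs, which 1.55% (TGACGTCA), 16.1% (AGAACA), 3.17% (GTAAACA) and 8.11% (AAAACAA) of promoters hold, are not in these 3 stretches. A match is a run of letters and not a measured binding site.

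The files hold peak positions and the authors' own score for each peak, taken here for a −log10 q-value, so read depth is unknown. In all, 6 H3K27Ac lists were long, from 38409 peaks (50 °C, 5 min) to 65332 (50 °C, 40 min), with 48239 in fresh frozen liver. The lists of 80 °C (65 peaks) and of FiT-seq H3K27Ac (115 peaks) held no peak in any of the 3 windows. Scores depend on each library's depth and background, so they are ranked within a list and not compared in size between lists. Intervals below are Wilson 95% intervals, which cover counting error only.

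Peaks covered more of all 3 windows in FFPE liver at 65 °C than in fresh frozen liver. In the Pck1 window, peaks covered 4.64 kb in fresh frozen liver, 20.2 and 19.7 kb in the 2 libraries at 65 °C and 5 min, and 20.3 kb at 65 °C and 40 min. In the G6pc window, the values were 4.19 kb in fresh frozen liver, 13.6 and 10.9 kb at 65 °C and 5 min, and 11.4 kb at 65 °C and 40 min. In the Tat window they were 4.85 kb, then 15.9 and 14.2 kb, then 16.0 kb. At each gene, the covered length of every 65 °C library was above that of the single fresh frozen library.

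The excess of the 65 °C, 5 min mean over fresh frozen liver was 15.3 kb at Pck1, where the standard deviation (SD) of the 2 libraries was 0.401 kb. It was 8.05 kb at G6pc (SD 1.95 kb, n = 2) and 10.2 kb at Tat (SD 1.17 kb, n = 2). As a ratio, the mean was 4.30 times fresh frozen liver at Pck1, 2.92 times at G6pc and 3.10 times at Tat. Median scores of the peaks in the windows, which are the authors' values and are not compared between lists, were 12.0, 6.25 and 11.2 in fresh frozen liver in the order Pck1, G6pc and Tat. They were 8.99, 7.84 and 9.34 in the first library and 7.27, 7.62 and 7.54 in the second.

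Coverage was also larger at 65 °C and 5 min over much of the genome. Among 14593 tiles of 60 kb that held a fresh frozen peak, the median ratio was 1.40, with quartiles of 0.559 and 2.23. Summed over these tiles, the mean coverage of the pair was 2.04 times that of fresh frozen liver, nearer than the median to the 2.92 of G6pc and 3.10 of Tat. Both libraries covered more than fresh frozen liver in 58.3% of the tiles. A ratio at least as high as that of Pck1 occurred in 6.14% of tiles, that of Tat in 13.0% and that of G6pc in 14.7%. As a share of the window, the difference was 25.5 percentage points at Pck1, 20.4 at Tat and 16.1 at G6pc, beside a median of 0.68 over the tiles. Differences at least as large occurred in 0.877%, 1.50% and 2.79% of tiles. The tiles were not matched for how many fresh frozen peaks they held, and the windows of G6pc and Tat are 50 kb long. Because the genes were selected on peak positions of these data, these shares are descriptions and do not measure chance.

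**Figure D1:**
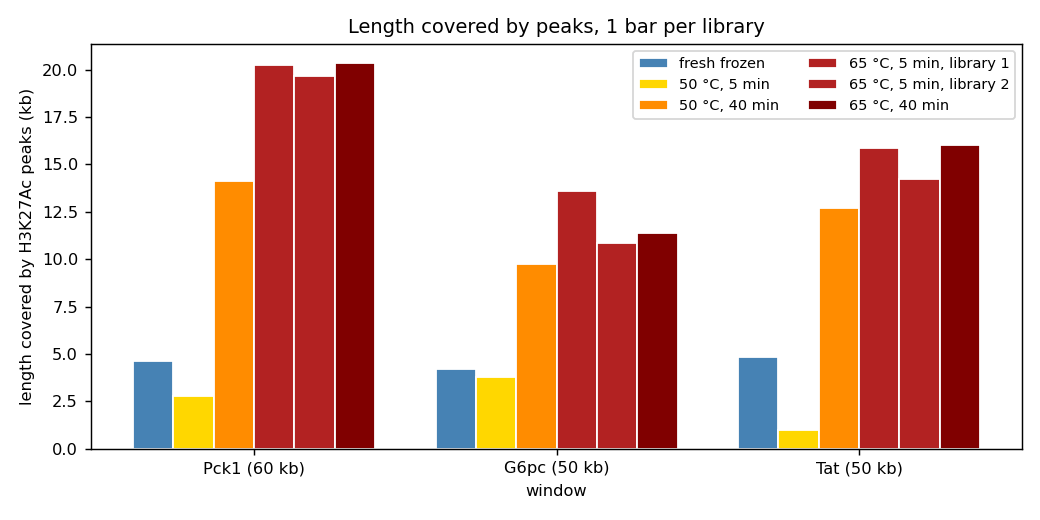
Length of each window covered by H3K27Ac peaks (kb, vertical axis) in fresh frozen liver and the 5 long FiTAc-seq lists, 1 bar per library and no error bars. Bars at 65 °C lie between 10.9 and 20.3 kb, above the fresh frozen bars of 4.19 to 4.85 kb, and the 50 °C, 5 min bars lie below fresh frozen liver in all 3 windows.

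**Figure D2:**
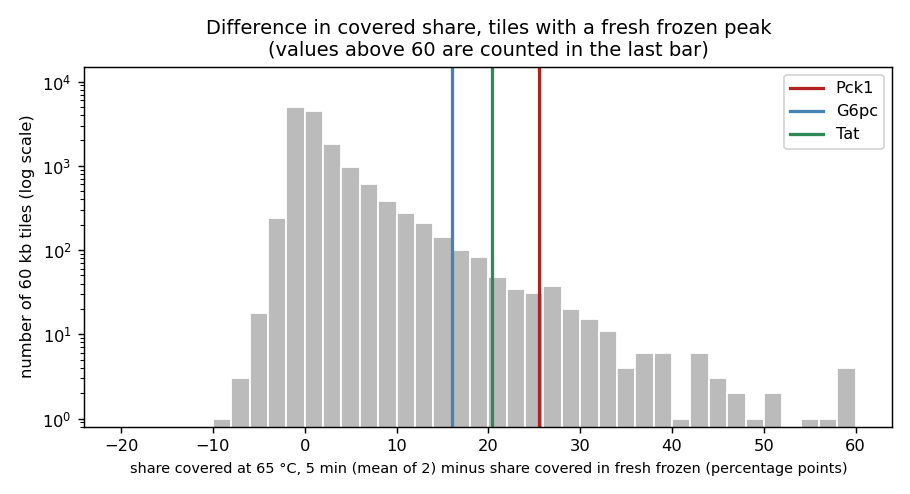
Number of 60 kb tiles (log scale) by the share covered at 65 °C and 5 min, as the mean of 2 libraries, minus the share covered in fresh frozen liver (percentage points). Vertical lines mark G6pc at 16.1, Tat at 20.4 and Pck1 at 25.5 points, to the right of the median tile at 0.68.

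At Pck1, the FFPE libraries at 65 °C had a broad acetylated stretch where fresh frozen liver listed no peak. The site chr2:172978428-172982001, 3574 bp long over all lists, held a peak in each of the 5 long FiTAc-seq lists. Its peak in the first library at 65 °C and 5 min spanned the whole site, scored 79.0 and ranked 943 of 60244. In the second it was 3453 bp wide, scored 51.9 and ranked 1812 of 56632. At 65 °C and 40 min it was 3406 bp wide, scored 62.3 and ranked 1719 of 64146. These 3 libraries each listed 1 unbroken peak there.

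The 50 °C lists split the same site. At 50 °C and 40 min 2 peaks covered 2.62 kb of it, the higher scoring 28.5, and at 50 °C and 5 min 2 peaks covered 1.17 kb with a score of 7.57. The nearest fresh frozen peak ended 534 bp below the site, at chr2:172977328-172977893, and scored 14.5. It belonged to the neighbouring site chr2:172976131-172978175, which had a peak in all 6 long lists. Peaks covered 0.566 kb of that neighbour in fresh frozen liver, 2.00 and 1.86 kb in the pair at 65 °C and 5 min, and 0.389 to 1.77 kb in the other FiTAc-seq lists. Between these sites lay 252 bp, chr2:172978176-172978427, without a peak in any of the 5 FiTAc-seq lists. This stretch was singled out after its values were seen. Sites are unions of peaks over all lists, so any stretch between neighbouring sites is empty by definition.

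Above it, the site chr2:172982169-172984448 had peaks in all 5 FiTAc-seq lists and none in fresh frozen liver. Peaks covered 2.07 and 2.17 kb of it at 65 °C and 5 min, 1.93 kb at 65 °C and 40 min, and 0.292 and 0.215 kb at 50 °C with 40 and 5 min. It was thus wide in the 65 °C libraries and narrow in those of 50 °C. The nearest fresh frozen peak lay 4275 bp away.

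Below the gap, the longest site of the window, chr2:172967424-172975594, had peaks in all 6 lists. Fresh frozen liver listed 4 peaks there that covered 2.22 kb, the highest scoring 11.1. In the pair at 65 °C and 5 min peaks covered 7.83 and 7.68 kb, and at 40 min they covered 7.51 kb at 65 °C and 6.72 kb at 50 °C. At 50 °C and 5 min a single peak covered 0.36 kb. This site held the highest Pck1 peak in both 40 min lists, with ranks of 723 at 65 °C and 2712 at 50 °C.

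The highest fresh frozen peak of the Pck1 window was a different one, chr2:172950202-172951041, at the lower edge of the window. It scored 36.2 and ranked 4589 of 48239. The same site was found in all 5 FiTAc-seq lists, with scores of 33.0 and 33.6 in the pair, but 3 other sites of the window scored higher in both. The highest peaks of fresh frozen liver and of the FiTAc-seq lists lay between 22.5 and 29.6 kb apart. A pair of smaller sites, chr2:172995213-172995836 and chr2:172995891-172996688, had fresh frozen peaks that scored 13.6 and 12.9. The first was missing at 50 °C and 5 min, and the second was in all 6 lists with 0.316 to 0.798 kb covered. The remaining site listed in at least 4 lists, chr2:172963812-172964606, was low and had no fresh frozen peak, with scores from 4.56 to 7.54 in 4 FiTAc-seq lists.

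**Figure D3:**
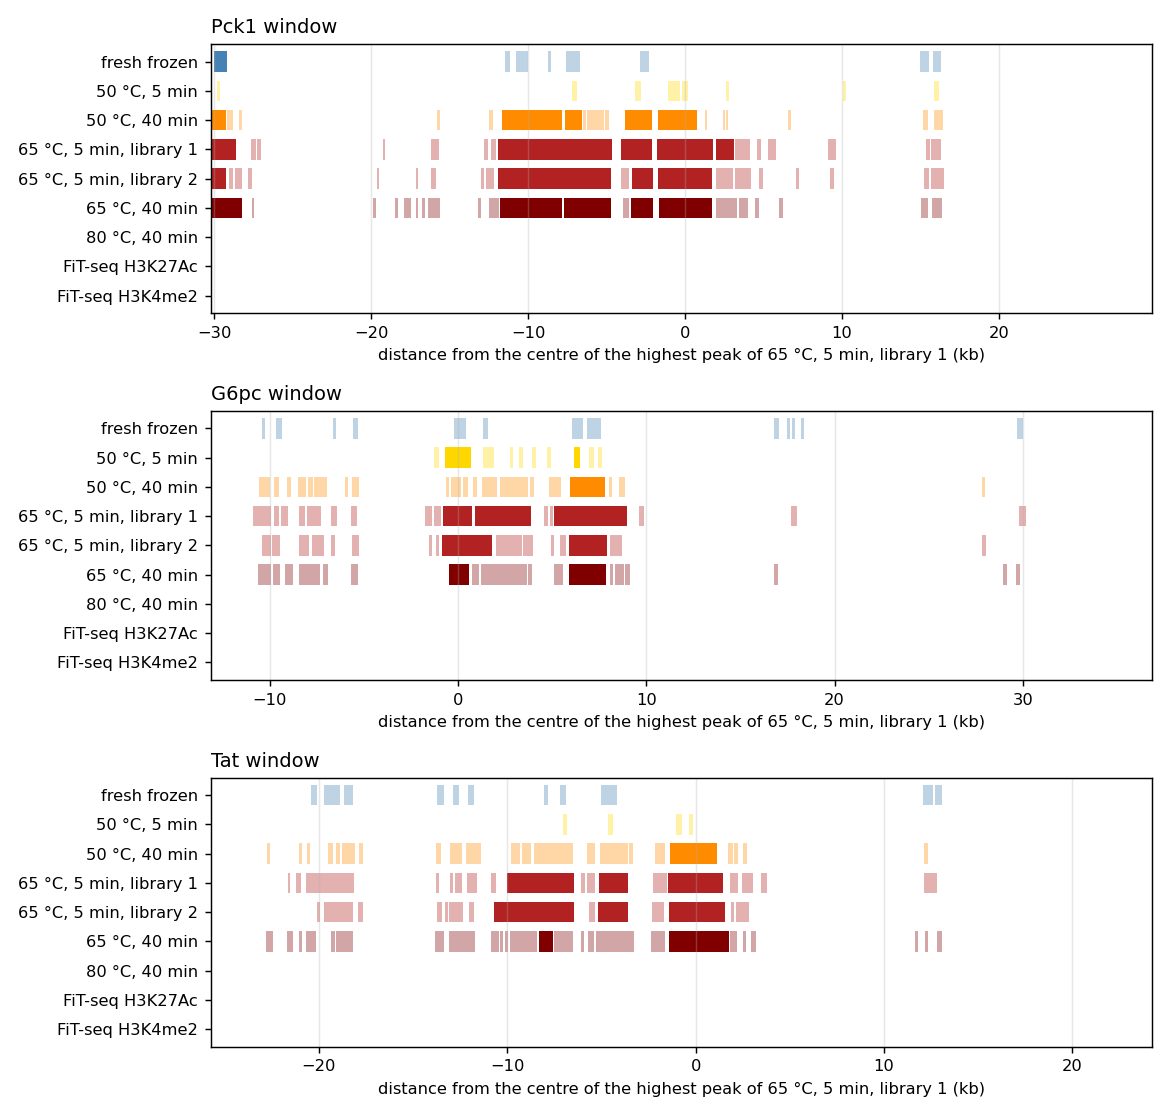
Peaks of all 9 lists in the 3 windows, 1 row per list, with the distance from the centre of the highest peak of the first 65 °C, 5 min library (kb) on the horizontal axis. Dark bars are among the 10000 highest peaks of their own list and pale bars are not. At 0 in the Pck1 and Tat windows the 3 rows of 65 °C have a peak and the fresh frozen row has none, and the 3 lowest rows are empty.

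At Tat the pattern was alike in form. The site chr8:112514304-112518952 had peaks in all 5 long FiTAc-seq lists and none in fresh frozen liver, whose nearest peak lay 2758 bp away. Its main peak was 2887 and 2995 bp wide in the pair at 65 °C and 5 min, with scores of 60.1 and 44.6 and ranks of 2123 and 2587. It was 3168 bp wide at 65 °C and 40 min (score 49.9, rank 3141) and 2515 bp wide at 50 °C and 40 min (score 29.8, rank 7951). These were the highest Tat peaks of those 4 lists. At 50 °C and 5 min 2 narrow peaks covered 0.542 kb of the site, with a score of 4.75, and the highest Tat peak of that list was chr8:112511077-112511350 with 6.32.

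A stretch of 96 bp, chr8:112514208-112514303, separated this site from the next one below it and held no peak in any of the 5 lists. It too was singled out after its values were seen and is empty by definition. The site below, chr8:112513383-112514207, had peaks in 4 FiTAc-seq lists, all but 50 °C and 5 min, and none in fresh frozen liver. So did the small site chr8:112509954-112510421, with 0.313 to 0.458 kb covered.

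Other Tat sites were shared with fresh frozen liver. The longest was chr8:112504880-112509307, where 2 fresh frozen peaks covered 0.546 kb and peaks of the pair 3.83 and 4.29 kb. It was 3.96 kb at 65 °C and 40 min, 3.06 kb at 50 °C and 40 min and 0.189 kb at 50 °C and 5 min. The site chr8:112510480-112512474 was in all 6 lists, with 0.818 kb in fresh frozen liver and 1.56 and 1.63 kb in the pair. Below both, 3 smaller sites, chr8:112501901-112502386, chr8:112502629-112503486 and chr8:112503526-112504335, had peaks in fresh frozen liver and in 4 FiTAc-seq lists, all but 50 °C and 5 min.

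The fresh frozen order at Tat differed from that of the FiTAc-seq lists. Its highest peak was chr8:112496013-112496885, which scored 20.3 and ranked 11305. The site around it, chr8:112495032-112497640, was covered over 1.66 kb in fresh frozen liver, 2.56 and 1.75 kb in the pair, and not at all at 50 °C and 5 min. The next fresh frozen peaks lay on the far side, at chr8:112527793-112528821, where 0.851 kb was covered and the score reached 16.0. The second library at 65 °C and 5 min and the 50 °C, 5 min list had no peak there, and the 3 other long FiTAc-seq lists had one with a score of 8.22 to 9.81. Between the highest fresh frozen peak and the highest peak of the 65 °C lists lay 19.3 to 19.5 kb.

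In each of the 5 long FiTAc-seq lists, the highest G6pc peak lay at a site that also held a fresh frozen peak. This was so at Pck1 for the 2 lists of 40 min, and at Tat for the 50 °C, 5 min list. The site chr11:101227674-101232252 held 2 fresh frozen peaks that covered 1.27 kb, with a score of 11.9 and a rank of 20069. In the pair at 65 °C and 5 min, peaks covered 4.24 and 3.14 kb of it, with scores of 34.5 and 33.6 and ranks of 5960 and 4596. At 65 °C and 40 min it was 3.41 kb, and the score of 60.6 and rank of 1886 were the highest of the G6pc window in that list. At 50 °C it was 3.06 kb after 40 min and 0.954 kb after 5 min.

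The other leading G6pc site, chr11:101222255-101227253, was also in all 6 lists. Fresh frozen liver covered 0.92 kb of it with 2 peaks and a score of 13.9. The pair covered 4.47 and 4.56 kb, with scores of 40.2 and 23.7. At 50 °C and 5 min it held the highest G6pc peak, chr11:101222433-101223806, with a score of 14.0 and a rank of 2903 of 38409. The 50 °C, 5 min list covered 2.54 kb of this site, more than fresh frozen liver, which was not so at any other named site where both had a peak.

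In fresh frozen liver the highest G6pc peaks lay lower on the chromosome. They were chr11:101213458-101213788, with a score of 19.8 and a rank of 11648, and chr11:101217552-101217834, with a score of 18.1. The sites around both were found in 4 FiTAc-seq lists, all but 50 °C and 5 min, with scores of 6.73 to 15.9. The site chr11:101212262-101213216 was in the same 4 lists and in fresh frozen liver, where it scored 5.47. Between these, chr11:101214624-101216225 had peaks in the same 4 lists and none in fresh frozen liver. A pair of narrow fresh frozen peaks were in none of the 5 long lists, chr11:101240592-101240737 and chr11:101241342-101241504, with scores of 5.33 and 5.68.

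**Figure D4:**
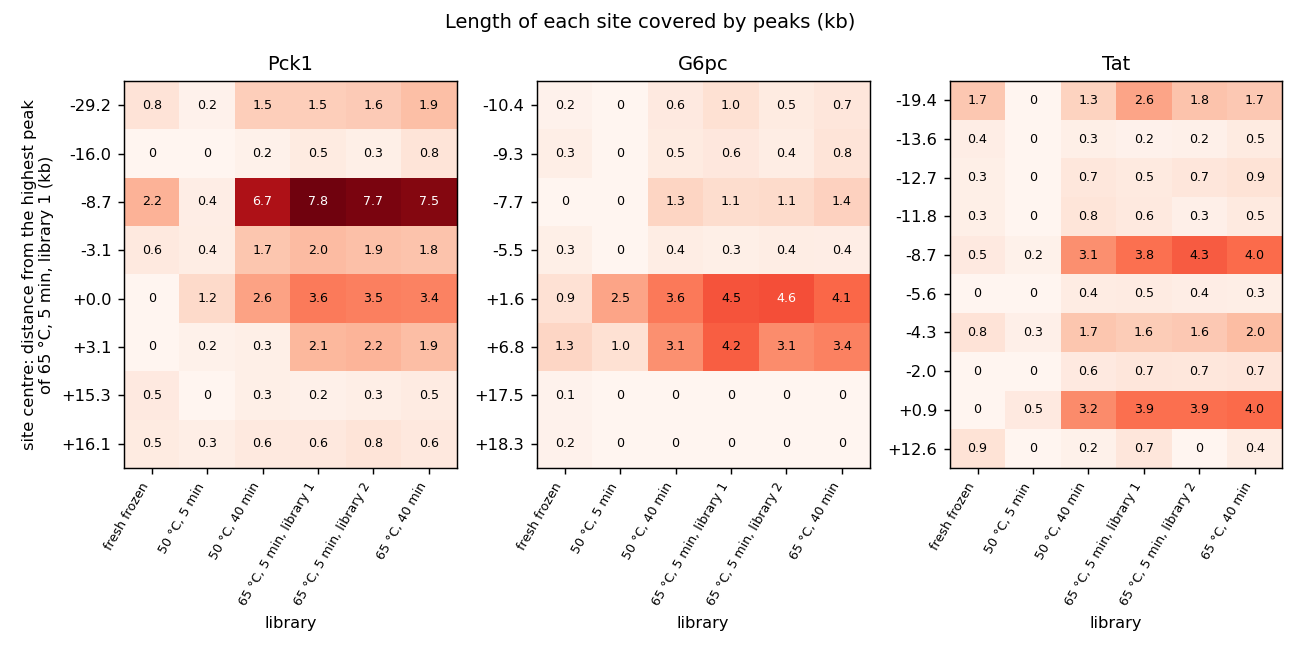
Length covered by peaks (kb, number and colour) at each named site in the 6 long H3K27Ac lists, with sites in rows by the distance of their centre from the highest peak of the first 65 °C, 5 min library (kb). The rows at 0 for Pck1 and at +0.9 for Tat are 0 in fresh frozen liver and 3.4 to 4.0 in the 65 °C libraries, whereas the G6pc rows at +1.6 and +6.8 are above 0 in all 6.

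High FiTAc-seq peaks without a fresh frozen peak were counted over the genome. The Pck1 peak among them is one the genes were selected on, so nothing is read from its place in these counts. Of the 5000 highest peaks of the first library at 65 °C and 5 min, 33 (0.66%) met no fresh frozen peak, and 1 of these lay at Pck1 and 1 at Tat. In the second library there were 51 (1.02%) and at 65 °C and 40 min 49 (0.98%), again with 1 at Pck1 and 1 at Tat. After merging peaks within 500 bp, the Pck1 peak met a fresh frozen peak in all 3 of these libraries, and the Tat peak in none. The G6pc window held 1 of the 5000 highest peaks in each of these 3 libraries, and it met a fresh frozen peak. At 50 °C none of the peaks without a fresh frozen peak in the windows was among the 5000 highest, where 47 (0.94%) after 40 min and 299 (5.98%) after 5 min lay elsewhere.

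The windows were also compared in lists of equal length. Among its 10000 highest peaks fresh frozen liver had 1 in the Pck1 window and 0 at G6pc and Tat. The first library at 65 °C and 5 min had 5, 3 and 3 in the order Pck1, G6pc and Tat, and the second 4, 2 and 3. The 65 °C, 40 min list had 5, 2 and 2. The 50 °C lists had 5, 1 and 1 after 40 min and 0, 2 and 0 after 5 min of sonication. Fresh frozen liver and the 50 °C, 5 min list thus had at most 1 such peak at Pck1 and none at Tat. A cut at 10000 keeps a larger share of a short list than of a long one. Fresh frozen liver listed 48239 peaks, 32 of them in the windows. The 65 °C, 5 min libraries listed 60244 (52 in the windows) and 56632 (50), and the 65 °C, 40 min list 64146 (66). The 50 °C lists held 65332 (61) after 40 min and 38409 (22) after 5 min. Whether the windows exceed the share kept of each list was not tested. No enrichment of high peaks in the windows is therefore read from these counts.

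Most fresh frozen peaks of the windows were met in FFPE liver. Of the 32, the first library at 65 °C and 5 min met 29, or 90.6% (75.8 to 96.8), where 73.0% of all fresh frozen peaks were met. The second met 25, or 78.1% (61.2 to 89.0), beside 70.2%. The 65 °C, 40 min list met 28, or 87.5% (71.9 to 95.0), beside 72.0%. At 50 °C and 40 min 24 were met, or 75.0% (57.9 to 86.7), close to the 73.2% of all, and at 50 °C and 5 min 10, or 31.3% (18.0 to 48.6), beside 43.7%. The intervals treat peaks as independent, which peaks of 1 window are not, so no difference from all peaks is read from them.

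By gene, all 8 Pck1 peaks were met in both libraries at 65 °C and 5 min, in the 65 °C, 40 min list and at 50 °C and 40 min. At Tat the counts of 11 were 11, 9, 11 and 9 in that order. G6pc was lower, with 10, 8, 9 and 7 of 13. Of the 32 peaks, 10 were met in all 5 long lists (41.1% of all fresh frozen peaks were) and 2 in none (16.6%), and both of the latter were the narrow G6pc peaks.

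In the other direction, 22 of 52 peaks of the first library and 18 of 50 of the second met a fresh frozen peak, where 44.3% and 46.4% of all their peaks did. The first share, 42.3%, is near that background, and the second, 36.0%, is below it. At 65 °C and 40 min the share was 37.9%, beside 49.6% of all peaks of that list. At 50 °C it was 37.7% beside 49.4% after 40 min, and 50.0% beside 55.7% after 5 min. These differences were not tested, and peaks of the same window are not independent. Counts of peaks without a fresh frozen peak are therefore not read as a result about these genes. The widest such peak was 3574 bp at Pck1, 2887 bp at Tat and 746 bp at G6pc in the first library, and 3453, 2995 and 1348 bp in the second.

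Sonication for 40 instead of 5 min at 50 °C went with more coverage in all 3 windows, by 11.3 kb at Pck1, 5.97 kb at G6pc and 11.7 kb at Tat. These exceed the SDs of the 65 °C pair (0.401, 1.95 and 1.17 kb), but each 50 °C condition had 1 library. At 65 °C the differences for 40 minus 5 min were 0.387 kb at Pck1, -0.876 kb at G6pc and 0.984 kb at Tat, all within those SDs. At 5 min, 65 °C minus 50 °C was 17.2 kb at Pck1, 8.46 kb at G6pc and 14.0 kb at Tat. At 40 min it was 6.24, 1.62 and 3.32 kb, of which the G6pc value was within the SD of the pair. Over the whole lists, peaks covered 17.2 Mb at 50 °C and 5 min and 36.3 Mb at 50 °C and 40 min. They covered 44.2 and 40.2 Mb at 65 °C and 5 min and 34.6 Mb at 65 °C and 40 min. Covered length thus also differed between these lists over the genome. Whether the windows differed more than the rest was not tested.

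The 50 °C, 5 min list covered less than fresh frozen liver in all 3 windows, at 2.76 kb for Pck1, 3.77 kb for G6pc and 1005 bp for Tat. This was the usual case, since 77.0% of tiles had less coverage in that list. Coverage above fresh frozen liver was thus seen in 4 of the 5 long lists at each gene. All 5 exceeded it in 21.0% of tiles.

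The 2 libraries at 65 °C and 5 min shared most of the covered length. At Pck1 17.5 of 22.4 kb were covered in both (78.2%), at Tat 12.3 of 17.8 kb (69.3%) and at G6pc 9.70 of 14.8 kb (65.7%). Of the peaks of the first library, 14 of 17 at Pck1, 12 of 17 at G6pc and 13 of 18 at Tat met a peak of the second, beside 67.5% of all. In the opposite direction the counts were 16 of 20, 15 of 16 and 12 of 14, beside 77.1%.

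H3K4me2 was not listed in any of the 3 windows, so no peak of either FiT-seq library accompanied the H3K27Ac sites. Of the tiles with a fresh frozen H3K27Ac peak, 46.7% held an H3K4me2 peak. The nearest H3K4me2 peak lay 102 kb from the Pck1 window, 18.0 kb from that of G6pc and 3.96 kb from that of Tat. The H3K4me2 list had 11746 peaks, and depth is unknown, so an absent mark cannot be told from an undetected one. By RefSeq order on GRCm38.p6, the nearest protein-coding genes are Ctcfl and Zbp1 beside Pck1, Aoc3 and Aarsd1 beside G6pc, and Marveld3 and Chst4 beside Tat. Which gene a peak belongs to was not tested.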

How the data were processed

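The authors aligned reads with BWA and called peaks with MACS2 on mm9, as the submitters' processing notes record. Their settings and the use of a control are not given in the sources used here. They deposited 1 list per library. The score in each deposited list was taken for a −log10 q-value, since the longest lists end just above 2 and values fall in steps. Only peaks on the autosomes, X and Y were used, which leaves out mitochondrial peaks. All counts of peaks are after this step.

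Members, lists and alternatives were chosen with earlier results of these data known. For each window the peaks, the length covered (cut at the window's edges) and the rank within the list (ties at their mean, rounded up) were taken. Peaks that overlapped by at least 1 bp were counted as met. Sites are unions of overlapping or touching peaks over all lists. Named were sites in at least 4 of the 6 long H3K27Ac lists, fresh frozen sites in no FiTAc-seq list and the highest peak of each list; others were singled out after their values were seen and are so marked. Tiles of 60 kb ran along the autosomes and X to the last peak. The comparisons have no test, since conditions other than 65 °C with 5 min had 1 library. Differences are set beside the SD of that pair, which may be technical. Other genes of the pathway were not analysed here, as no gene positions on mm9 were used. Overlap and coverage steps were tested on simulated lists. Python 3.11.15, numpy 2.4.6, pandas 2.3.3 and matplotlib 3.10.9 were used.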

Additional observations from a re-analysis of the deposited data

How the results depend on the processing

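Alternatives were peaks scoring 5 or more, merging at gaps of up to 500 bp, the 30000 highest peaks of each list, the midpoint inside the window, an overlap of 50% of the shorter peak, and leaving out either library of the 65 °C, 5 min pair. No excess in covered length changed sign under these settings. At Pck1 it was 14.8 kb with a score of at least 5, 16.8 kb after merging and 14.1 kb with 30000 peaks, and 15.0 to 15.6 kb with either library left out. Those ranges were 6.67 to 9.43 kb at G6pc and 9.37 to 11.0 kb at Tat. Merging gave a share of fresh frozen peaks met of 88.9% at G6pc, and 30000 peaks gave 91.7% at Pck1. With either library left out, the shares were 61.5% to 76.9% at G6pc, 81.8% to 100% at Tat and 100% at Pck1. Merging moved the rank of the highest G6pc peak to 4484.5 at 65 °C and 5 min and to 10179 in fresh frozen liver, and that of Tat in fresh frozen liver to 9919. With either library left out, the ranks at 65 °C and 5 min were 943 to 1812 at Pck1, 4596 to 4802 at G6pc and 2123 to 2587 at Tat. Leaving out a library of the pair returns the value of the other, and merging leaves fewer peaks to rank. What else moved these values was not tested.

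Chosen after seeing the data were the same settings for the ratios of covered length, which ran from 4.20 to 4.97 at Pck1, 2.59 to 3.79 at G6pc and 2.64 to 3.74 at Tat, and settings for the sites without a fresh frozen peak. After merging within 500 bp the Pck1 peak joined its lower neighbour in 4 of the 5 FiTAc-seq lists, all but 50 °C and 5 min, and then met a fresh frozen peak. No fresh frozen peak reached the site itself. At Tat the merged peak, 6012 bp wide in the first library, still met none. With a score of at least 5 the Tat site had no peak at 50 °C and 5 min. No paired analysis was possible because only 65 °C with 5 min had more than 1 library. Read depth is unknown, so a missing peak may be signal under the limit of a list, which is 2.00 in fresh frozen liver.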
